A study of Mus musculus with 20 samples.

Results

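The liver transcriptome of Nsun6-knockout (KO) mice was compared with that of wild-type (WT) mice in 4 of the 20 RNA-seq libraries of the series, chosen as the libraries whose label names the liver, with 2 WT and 2 KO libraries. Of the 55401 genes in the count table, 15729 passed the filter on low counts and were tested. Both groups were on the C57BL/6J strain, in which the KO was made by injecting Cas9 and guide RNAs into fertilized eggs, and the KO mice carried a homozygous deletion of exons 3 and 4 of Nsun6 in every cell. The mice were young adult females. The livers were snap-frozen, and mRNA was captured from total RNA of the bulk tissue for a stranded library. The replicates were biological according to the methods, but whether the 5 tissues of a replicate came from the same animal is not given in the sources used here.

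Nsun6 is a methyltransferase that places 5-methylcytosine (m5C) on a small set of RNAs, among them certain tRNAs and mRNAs. The liver is made mainly of hepatocytes, which synthesize plasma proteins, bile acids and lipids and clear drugs and steroids through oxidation by cytochrome P450 enzymes followed by conjugation to sulfate, glucuronide or glutathione. Many of these enzymes differ between male and female mouse liver, because the sexes release growth hormone from the pituitary in different patterns and the hormone signals in hepatocytes through the transcription factor STAT5. The questions were which liver genes change without Nsun6, and which of the metabolic, stress, interferon and cell cycle programs they belong to.

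The targeted gene was examined first. Nsun6 lies on the minus strand at chr2:14995131-15055069 (GRCm38), and in the annotated transcript Nsun6-201 the deleted exons 3 and 4 occupy chr2:15042227-15042306 and chr2:15039733-15039842. Both exons are wholly coding. They are shown because they define the KO, in lower case and 5′ to 3′ on the coding strand, as read from the GENCODE transcript on the same build.
Nsun6 exon 3: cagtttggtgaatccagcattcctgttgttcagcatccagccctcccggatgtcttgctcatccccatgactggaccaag
Nsun6 exon 4: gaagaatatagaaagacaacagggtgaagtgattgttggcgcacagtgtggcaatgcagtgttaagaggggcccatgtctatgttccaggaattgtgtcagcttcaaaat

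Together they hold 190 of the 2897 bases of this transcript (6.56%), and dividing these coding bases by 3 leaves a remainder of 1. Counts per gene pool all exons, so a transcript lacking these exons would still be counted. Nsun6 was low in every library, with 183 and 91 counts in the WT livers and 83 and 124 in the KO livers, or 4.68, 3.18, 2.67 and 2.92 CPM (counts scaled to a common library total). Both KO values lay below both WT values, but the difference (log2 fold change -0.49, SE 0.34) did not pass the edgeR test (adjusted p = 0.999). Of the 14 genes of the m5C machinery, comprising writers, erasers and readers of the mark, none was called by edgeR or DESeq2. Nsun2, the other enzyme that places m5C on mRNA, had counts of 3063, 3027, 3242 and 3795, with a log2 fold change of 0.07.

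The libraries held 32890390 (WT replicate 1), 31182605 (WT replicate 2), 32381398 (KO replicate 1) and 44508197 (KO replicate 2) counts. The liver label fitted the hepatocyte markers, since all 18 were tested and Alb, which encodes serum albumin, averaged 170800 TPM, a level scaled by exon length. Across genes, log2 CPM correlated at r = 0.968 between the WT replicates and at 0.980 between the KO replicates, whereas the 4 pairs of different genotype lay between 0.971 and 0.976. Thus the WT replicates were less alike than any pair of WT and KO libraries. WT replicate 1 stood apart in several measures. Its 10 most abundant genes took 17.8% of its counts, against 26.8%, 25.9% and 24.3% in WT replicate 2, KO replicate 1 and KO replicate 2, and its summed hepatocyte marker level was 137600 CPM against 266500, 238600 and 229000 CPM. It also held more transcripts of the heart and small intestine, but not of the kidney. A set of 72 genes with at least 200 CPM in the heart and at most 0.2 CPM in the lowest liver library summed to 41.9 CPM in WT replicate 1 but to 14.4, 11.9 and 11.4 CPM in the others, and 122 genes chosen likewise from the small intestine summed to 43.6 CPM against 13.6, 15.9 and 13.8 CPM. From the kidney, 51 such genes summed to 6.28 CPM in WT replicate 1 and to 7.21, 7.48 and 7.80 CPM in the others. The spleen gave only 1 such gene. Xist was counted in all 4 livers and 4 Y-linked genes were at 0 counts in all of them.

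Few genes separated KO from WT liver. In the edgeR quasi-likelihood test, 8 genes (0.0509% of those tested) rose in KO liver, with an adjusted p under 0.1 and a fold over 2 as thresholds, and 0 genes (0%) were lower, where the smallest adjusted p was 0.306. Without adjustment, 431 genes with a positive and 308 with a negative log2 fold change had p under 0.05, together 4.7% of all genes. DESeq2 with the same thresholds called 33 genes higher (0.222% of the 14885 genes it gave an adjusted p) and 20 lower (0.134%), and its higher genes included all 8 called by edgeR. Both KO libraries exceeded both WT libraries for 2701 genes (17.2%) and fell short of both for 2534 (16.1%). With a fold change over 2 added, these were 317 (2.02%) and 300 (1.91%) genes. The median log2 fold change of all genes was 0.0048. A single edgeR fit of all 20 libraries called 0 genes, so that none of the 8 passed it, and omitting the filter on low counts gave 68 higher and 54 lower genes. The counts also depended on single libraries: without KO replicate 1 edgeR called 4 genes higher, and without KO replicate 2 it called 2, whereas it called 132 higher and 73 lower without WT replicate 1, and 152 and 41 without WT replicate 2.

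**Figure D1:**
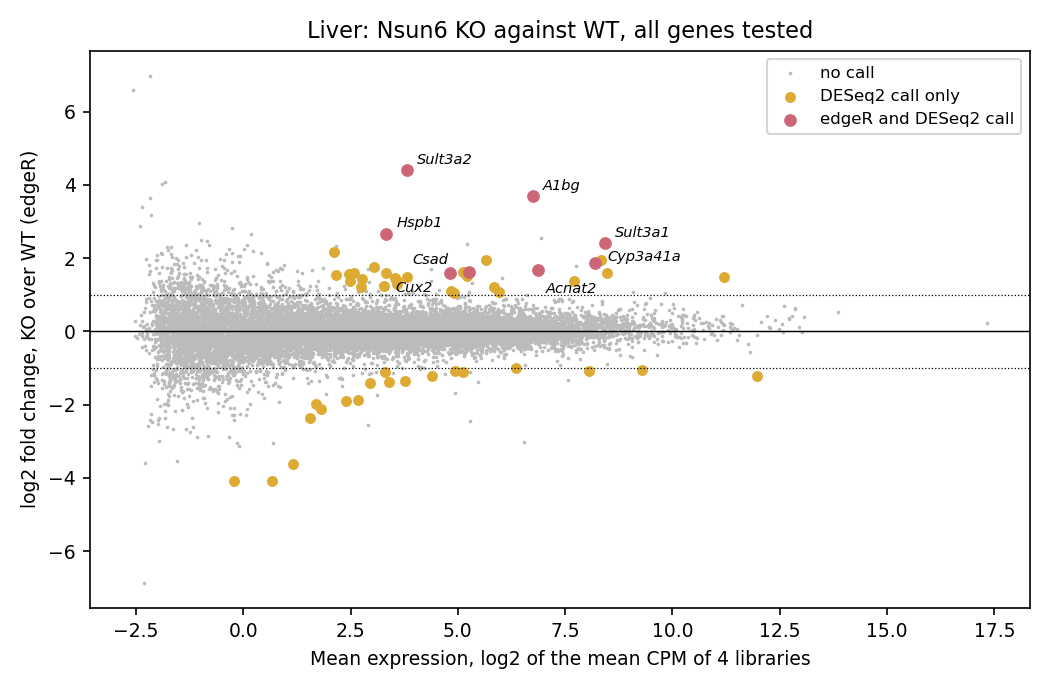
Each point is 1 of the 15729 genes tested, with the log2 of its mean CPM over the 4 liver libraries on the horizontal axis and its log2 fold change (KO over WT, edgeR) on the vertical axis. Red points are the 8 genes called by both tools, all above the dotted line at a 2-fold difference, yellow points are called by DESeq2 alone, and grey points have no call.

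Of the 8 genes higher in KO liver, 5 belong to the list of genes known to be more highly expressed in female than in male liver. They included A1bg, which encodes a plasma glycoprotein, and the sulfotransferases Sult3a2 and Sult3a1, which transfer sulfate to amines and other small molecules. By fold, Sult3a2, A1bg and Hspb1 rose most. In none of the 8 did the genotypes overlap. The same held for all 33 genes that DESeq2 called higher, so the separation adds little to the call itself. Among the genes called by DESeq2 alone, Tubb2a, a beta tubulin gene, measured 23.4 and 17.8 CPM in WT and 56.9 and 102 CPM in KO liver (DESeq2 adjusted p = 4.04e-07, edgeR adjusted p = 0.223).

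A1bg (chr15:60896859-60923012, minus strand) measured 13.7 and 17.1 CPM in WT liver and 194 and 205 CPM in KO liver. This is a 12.99-fold difference (log2 fold change 3.70, SE 0.22, edgeR adjusted p = 0.00107). The KO replicates differed from each other far less than from either WT library.

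Sult3a2 (chr10:33766424-33786704, minus strand) was at 1.71 and 0.769 CPM in WT liver and at 27.5 and 26.3 CPM in KO liver (log2 fold change 4.40, SE 0.35, edgeR adjusted p = 0.00639). Its neighbour Sult3a1 (chr10:33857721-33879532, plus strand) was more abundant, with 114 and 104 CPM in WT and 584 and 569 CPM in KO liver (log2 fold change 2.40, SE 0.22, adjusted p = 0.0121). Both genes thus rose together, although they are close relatives, so that the assignment of reads between them is uncertain. Cyp3a41a (chr5:145694049-145720136, minus strand), a P450 enzyme of the steroid- and drug-oxidizing CYP3A family, measured 132 and 122 CPM in WT and 507 and 418 CPM in KO liver (log2 fold change 1.87, SE 0.22, adjusted p = 0.0431). The same uncertainty applies to Cyp3a41a and its near-identical copy Cyp3a41b.

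Acnat2 (chr4:49379840-49408151, minus strand) is related to the enzymes that join acyl groups to amino acids in peroxisomes. It measured 54.2 and 57.8 CPM in WT and 172 and 182 CPM in KO liver (log2 fold change 1.66, SE 0.19, edgeR adjusted p = 0.0431). Csad (chr15:102176999-102204724, minus strand), the decarboxylase of taurine synthesis, measured 19.4 and 18.2 CPM in WT and 61.0 and 54.3 CPM in KO liver (log2 fold change 1.62, SE 0.18, adjusted p = 0.0431). Cux2 (chr5:121856366-122050102, minus strand), a homeodomain repressor of male-biased genes in female liver, measured 12.6 and 15.3 CPM in WT and 37.4 and 46.6 CPM in KO liver (log2 fold change 1.59, SE 0.21, adjusted p = 0.0865). Hspb1 (chr5:135887919-135889563, plus strand) encodes a small heat shock protein that holds unfolded proteins. It measured 2.40 and 3.08 CPM in WT and 13.04 and 21.66 CPM in KO liver (log2 fold change 2.67, SE 0.32, adjusted p = 0.0431), so that its KO replicates differed more than those of the other 7 genes relative to their level. Leaving out KO replicate 1 removed the calls of Acnat2, Csad, Cux2, Cyp3a41a and Sult3a1, and leaving out KO replicate 2 removed these and Hspb1, whereas A1bg and Sult3a2 kept theirs.

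**Figure D2:**
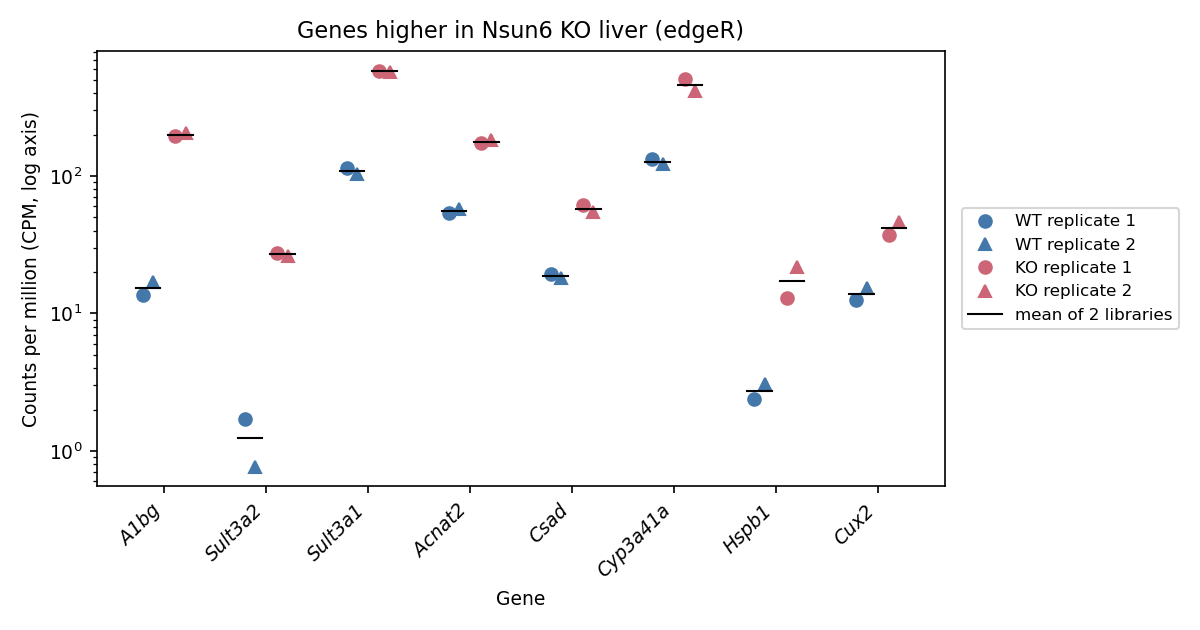
CPM of the 8 genes called higher by edgeR in each liver library, on a log axis, with WT in blue, KO in red, circles for replicate 1, triangles for replicate 2 and a line at the mean of each genotype. Both KO points lie above both WT points for every gene, from 13.7 and 17.1 against 194 and 205 CPM for A1bg to 12.6 and 15.3 against 37.4 and 46.6 CPM for Cux2.

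The bases just before the start of these genes were read from RefSeq (GRCm38.p6), and 4 windows are shown that were chosen because they hold a motif named for a program of interest, those of A1bg, Sult3a1, Hspb1 and Isg15 (an interferon-stimulated gene described later). In 250 bases before the start, 3 short motifs were searched on both strands: the STAT5 element TTCNNNGAA, the heat shock element GAANNTTC and the interferon response element GAAANNGAA. They occur in 7.02%, 6.69% and 7.13% of all 32851 such promoter windows. Matches are in capitals, and Sult3a1 carries a match to the first and to the last motif.
A1bg, chr15:60921271-60921520, minus strand: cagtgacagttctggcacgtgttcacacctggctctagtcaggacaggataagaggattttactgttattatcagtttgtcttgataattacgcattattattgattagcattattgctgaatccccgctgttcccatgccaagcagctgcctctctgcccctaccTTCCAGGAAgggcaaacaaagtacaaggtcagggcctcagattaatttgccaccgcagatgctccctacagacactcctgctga
Sult3a1, chr10:33857472-33857721, plus strand: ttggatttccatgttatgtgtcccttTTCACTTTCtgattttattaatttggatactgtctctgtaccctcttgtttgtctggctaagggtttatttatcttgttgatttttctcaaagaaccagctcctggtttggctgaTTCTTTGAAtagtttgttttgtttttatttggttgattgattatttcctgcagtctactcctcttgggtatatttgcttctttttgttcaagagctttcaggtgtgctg
Hspb1, chr5:135887669-135887918, plus strand: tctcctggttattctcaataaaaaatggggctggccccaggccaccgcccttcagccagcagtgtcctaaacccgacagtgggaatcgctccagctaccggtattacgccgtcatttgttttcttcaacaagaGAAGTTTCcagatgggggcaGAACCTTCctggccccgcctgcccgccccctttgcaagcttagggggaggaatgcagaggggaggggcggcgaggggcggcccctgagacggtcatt
Isg15, chr4:156200819-156201068, minus strand: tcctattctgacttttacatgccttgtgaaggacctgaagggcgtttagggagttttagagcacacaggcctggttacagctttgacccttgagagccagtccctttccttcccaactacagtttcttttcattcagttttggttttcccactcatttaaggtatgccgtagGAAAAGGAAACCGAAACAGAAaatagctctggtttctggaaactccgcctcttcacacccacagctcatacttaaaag

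The STAT5 element began 84 bases before the RefSeq start in A1bg and 109 in Sult3a1. For A1bg this start lies inside the gene span given above, which comes from the annotation used for counting. Hspb1 had heat shock elements at 117 and 97 bases, and Isg15 had 3 overlapping interferon elements beginning 78, 72 and 66 bases before the start. Of the 32 genes named here that either tool called, 24 had such a window, some of them several. The STAT5, heat shock and interferon motif occurred in any window of 2, 3 and 3 of these genes. These are counts of genes, whereas the percentages over all promoters are of windows. The windows of Sult3a2, Cyp3a41a, Cux2 and Cyp2c69, which are also female-biased genes called higher, held no STAT5 element, and Acnat2 and Idi1 held heat shock elements without being heat shock genes. A match describes the letters and not the binding of a factor.

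Female-biased genes made up 5 of the 8 genes that edgeR called. Of 38 such genes tested, edgeR called A1bg, Sult3a2, Sult3a1, Cyp3a41a and Cux2 higher, against 0.0509% of all genes, and none lower. DESeq2 called 7 higher, against 0.222% of all genes, and 2 lower, against 0.134%. Both KO libraries exceeded both WT libraries for 20 (52.6%, against 17.2% of all genes) and fell short of both for 6 (15.8%, against 16.1%). Their median log2 fold change was 0.32. The summed level of the list was 8300 and 7631 CPM in WT and 13460 and 11830 CPM in KO liver. Cyp2c69, a P450 enzyme and the most abundant member, measured 842 and 1651 CPM in WT and 3258 and 3697 CPM in KO liver, a difference called by DESeq2 (adjusted p = 0.000586) and not by edgeR (adjusted p = 0.775). The 6 genes below WT were Atp6v0d2, Sult1e1, Slc22a29, Cd36, Cyp2b10 and Cyp2b13. Atp6v0d2, a subunit of the vacuolar proton pump, and Sult1e1, the estrogen sulfotransferase, are examples, Atp6v0d2 at 37.0 and 46.5 CPM in WT and 22.96 and 16.38 CPM in KO liver and Sult1e1 at 1.53 and 2.03 against 0.451 and 0.448 CPM. DESeq2 called Atp6v0d2 (adjusted p = 0.0283) and Slc22a29 lower.

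Male-biased genes showed no call by either tool. Of 36 tested, both KO libraries were above both WT libraries for 6 (16.7%, against 17.2% of all genes) and below for 5 (13.9%, against 16.1%), with a median of 0.16. This median depended on the WT library, at -0.20 without WT replicate 1 and 0.68 without WT replicate 2. Outside this list, the major urinary protein gene Mup15 had 122 and 143 CPM in WT and 727 and 295 CPM in KO liver, where the KO replicates differed by more than 2-fold (DESeq2 adjusted p = 1.25e-05, edgeR adjusted p = 0.748).

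Of 25 genes of growth hormone and STAT5 signalling tested, 16 had a log2 fold change above 0 and 9 below, and none lay below WT in both KO livers, where 16.1% of all genes did. Besides Cux2, DESeq2 called Socs2, the feedback inhibitor of the growth hormone receptor, at 12.2 and 21.8 CPM in WT and 60.9 and 44.1 CPM in KO liver (adjusted p = 0.000245). Igfals, which encodes the subunit that keeps insulin-like growth factors in the circulation, measured 33.1 and 51.3 CPM in WT and 82.4 and 82.3 CPM in KO liver, which edgeR did not call (log2 fold change 0.96, SE 0.23, adjusted p = 0.775). For 6 of the 25 genes both KO libraries exceeded both WT libraries, where 17.2% of all genes did. The median of the list was 0.28 and became -0.017 without KO replicate 1.

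Of 26 genes that mark pericentral hepatocytes, 4 lay above WT (15.4%, against 17.2% of all genes) and 6 below (23.1%, against 16.1%), with a median of 0.016. Of 26 periportal genes, 5 lay above (19.2%) and 3 below (11.5%), with a median of -0.0085. Among pericentral genes Cyp1a2, which oxidizes caffeine and other planar compounds, was at 357 and 372 CPM in WT and 181 and 161 CPM in KO liver, and DESeq2 called it lower (adjusted p = 0.000393) whereas edgeR did not (adjusted p = 0.431). Its WT and KO values were clearly separate. Cps1, the periportal enzyme that starts the urea cycle, measured 5288 and 3301 CPM in WT and 2548 and 3230 CPM in KO liver, so that its groups were barely apart.

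The enzymes of drug and steroid oxidation went both ways. Of 72 P450 genes tested, both KO libraries lay above both WT libraries for 19 (26.4%, against 17.2% of all genes) and below for 15 (20.8%, against 16.1%), the list median being 0.0083. DESeq2 called 3 P450 genes higher and 3 lower, against 0.222% and 0.134% of all genes. The lower ones were Cyp1a2, Cyp2a5, which oxidizes coumarin and nicotine, and Cyp3a59. Cyp2a5 measured 964 and 737 CPM in WT and 446 and 369 CPM in KO liver (DESeq2 adjusted p = 0.00409). Cyp3a59 measured 112 and 107 CPM in WT and 56.6 and 53.2 CPM in KO liver (DESeq2 adjusted p = 0.00418), the opposite order to its relative Cyp3a41a. Among 68 flavin monooxygenases and alcohol, aldehyde and aldo-keto oxidoreductases, none was called by either tool, 21 (30.9%, against 17.2% of all genes) lay above WT and 5 (7.35%, against 16.1%) below, and the median was 0.13. This median became 0.293 without WT replicate 2 and 0.0703 without KO replicate 2. Cbr1, a carbonyl reductase, had the smallest edgeR p of this list, with 43.2 and 66.2 CPM in WT and 75.0 and 103.9 CPM in KO liver (edgeR adjusted p = 0.983).

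Among conjugating enzymes, edgeR called the Sult3a pair alone. The 20 sulfotransferase and sulfate donor genes had a median of -0.17, with 5 above WT in both KO livers and 3 below, where 17.2% and 16.1% of all genes lay. Of 38 glutathione and glucuronide transferases, 12 (31.6%, against 17.2% of all genes) lay above WT in both KO livers and 3 (7.89%, against 16.1%) below, and none was called by either tool. Mgst3, a microsomal glutathione transferase, had 26.8 and 24.3 CPM in WT and 41.5 and 40.9 CPM in KO liver (edgeR adjusted p = 0.868). Gsta2, a cytosolic one, had 65.1 and 28.3 CPM in WT and 19.8 and 9.24 CPM in KO liver (edgeR adjusted p = 0.987).

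Among sulfur amino acid genes, Csad was the one called. The 24 tested had a median of 0.18, which became 0.0903 without KO replicate 2. Of these, 11 (45.8%, against 17.2% of all genes) lay above WT and 4 (16.7%, against 16.1%) below. They included Cbs, which starts the conversion of homocysteine to cysteine, at 142 and 155 CPM in WT and 199 and 318 CPM in KO liver, a difference that did not pass edgeR (adjusted p = 0.947). The 4 below included Cdo1, the cysteine dioxygenase upstream of Csad and the most abundant member. Its difference was small, at 2098 and 2031 CPM in WT and 1920 and 1948 CPM in KO liver.

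Cholesterol synthesis had 12 of 25 genes above WT (48.0%, against 17.2% of all genes) and none below (against 16.1%), with a median of 0.34, and DESeq2 called Idi1, the isomerase that makes the allylic isoprene unit, higher. Idi1 measured 122 and 111 CPM in WT and 289 and 320 CPM in KO liver (log2 fold change 1.39, SE 0.20, DESeq2 adjusted p = 6.48e-07, edgeR adjusted p = 0.132). The next members were Nsdhl, which removes methyl groups from sterols, at 70.5 and 48.7 CPM in WT and 100.5 and 113.9 CPM in KO liver, and Fdft1, the squalene synthase, at 127 and 91.0 against 182 and 210 CPM. Neither was called. The WT libraries differed in this list. The summed level of the list was 5992 CPM in WT replicate 1, 2983 in WT replicate 2, and 5888 and 5604 in the KO livers, and leaving out WT replicate 2 took the median to 0.056, leaving out WT replicate 1 to 0.97.

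Fatty acid and triglyceride synthesis was split, with 6 of 37 genes above WT (16.2%, against 17.2% of all genes), 6 below (16.2%, against 16.1%) and a median of -0.037. Scd1, the desaturase that makes oleate, was the most abundant of these genes, at 7382 and 3799 CPM in WT and 3210 and 1584 CPM in KO liver, and was called lower by DESeq2 (adjusted p = 0.0912) but not by edgeR (adjusted p = 0.983). Its lower WT value and higher KO value were close. Fatty acid oxidation and PPAR alpha targets had 8 of 48 genes above WT (16.7%, against 17.2% of all genes) and 4 below (8.33%, against 16.1%). Their median of 0.18 became -0.12 when WT replicate 1 was left out and 0.51 when WT replicate 2 was. Fabp1, the fatty acid carrier of hepatocytes, measured 3963 and 5547 CPM in WT and 7879 and 7414 CPM in KO liver (edgeR adjusted p = 0.999). No gene of this list was called by either tool. The 23 acyl-CoA thioesterase and acyltransferase genes, which hold Acnat2, had a median of 0.11.

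Bile acid, sugar and amino acid genes held no call by either tool. Cyp7a1, the rate-limiting enzyme of bile acid synthesis, was at 456 and 395 CPM in WT and 310 and 299 CPM in KO liver (edgeR adjusted p = 0.999), and the 26 genes of bile acid synthesis and transport had a median of 0.062. The 33 glycolysis and gluconeogenesis genes had one of 0.051. The 41 urea cycle and amino acid catabolism genes had a median of -0.092. Of these, 11 (26.8%, against 16.1% of all genes) lay below WT and 2 (4.88%, against 17.2%) above. They included Agxt2, a mitochondrial aminotransferase, at 187 and 207 CPM in WT and 144 and 136 CPM in KO liver, and the transaminases Got1 and Gpt2. For none of them did edgeR give an adjusted p below 0.999.

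**Figure D3:**
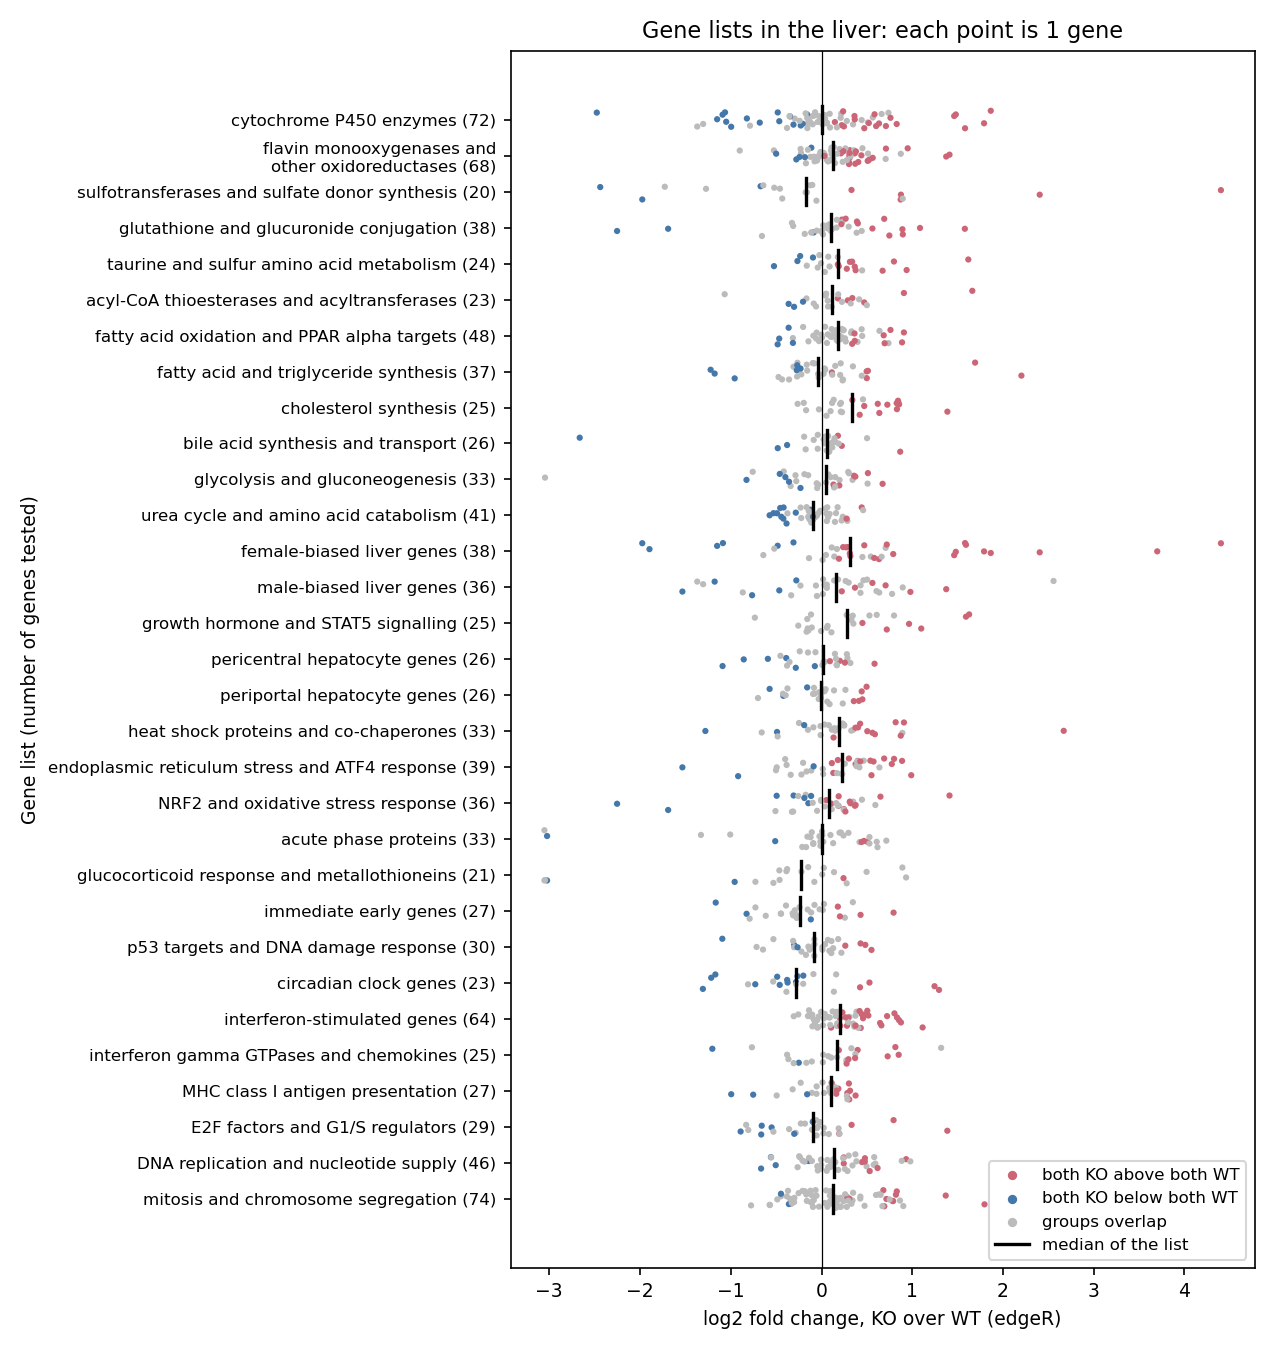
Log2 fold change (KO over WT, edgeR) of every tested gene of each list, 1 point per gene, with the number tested beside the list name and a black line at the list median. Red points had both KO libraries above both WT libraries and blue points both below, and the medians of the metabolic, sex and position, stress, interferon and cell cycle lists drawn ranged from -0.28 for circadian clock genes to 0.34 for cholesterol synthesis.

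When each library was left out in turn, the medians of these lists kept their sign: oxidoreductases, sulfur amino acid metabolism, cholesterol synthesis, female-biased genes, heat shock proteins, the ATF4 response, the NRF2 response, circadian clock genes, interferon-stimulated genes and E2F factors. Those of the other lists drawn turned sign at least once. A kept sign did not mean a kept size. The NRF2 median became 0.165 and the heat shock median 0.127 without WT replicate 2, and the E2F median became -0.152 without KO replicate 1.

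In the stress lists, Hspb1 was the gene edgeR called. Of 33 heat shock proteins and co-chaperones tested, 12 (36.4%, against 17.2% of all genes) lay above WT in both KO livers and 3 (9.09%, against 16.1%) below, and the median was 0.19. Stip1, which links Hsp70 to Hsp90, measured 56.6 and 71.3 CPM in WT and 107 and 128 CPM in KO liver, and Fkbp4, an Hsp90 co-chaperone of steroid receptors, measured 166 and 132 against 226 and 300.0 CPM. edgeR called neither (adjusted p = 0.775 and 0.943). The inducible Hspa1b went the other way, with a log2 fold change of -1.28, the lowest of the list. The most abundant member, Hspa8, measured 2186 and 1682 CPM in WT and 2852 and 2341 CPM in KO liver.

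Endoplasmic reticulum stress and ATF4 response genes had 15 of 39 members above WT (38.5%, against 17.2% of all genes), 3 below (7.69%, against 16.1%) and a median of 0.23, which became 0.10 without KO replicate 1, with no call by either tool. Sdf2l1, a chaperone partner of the endoplasmic reticulum, measured 30.6 and 20.2 CPM in WT and 49.4 and 51.6 CPM in KO liver (log2 fold change 0.99, SE 0.23, edgeR adjusted p = 0.775). Ddit3, the proapoptotic factor of the same response, lay on the other side at 8.98 and 13.8 CPM in WT and 5.18 and 6.83 CPM in KO liver. In the NRF2 and oxidative stress list, 12 of 36 genes lay above WT (33.3%, against 17.2% of all genes) and 7 below (19.4%, against 16.1%), with a median of 0.080. Nfe2l2, which encodes NRF2 itself, was at 103 and 102 CPM in WT and 71.2 and 74.5 CPM in KO liver (edgeR adjusted p = 0.983), a small difference with little spread.

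Acute phase, glucocorticoid, immediate early and p53 lists held no call by either tool. Their medians were 0.0084 (33 genes), -0.22 (21), -0.24 (27) and -0.078 (30). WT replicate 2 stood out in Mt1, a metallothionein induced by zinc and glucocorticoids, with 299 CPM against 33.7 in WT replicate 1 and 19.96 and 20.8 in the KO livers. Of 23 circadian clock genes, 11 (47.8%, against 16.1% of all genes) lay below WT and 4 (17.4%, against 17.2%) above, with a median of -0.28. Usp2, a clock-controlled deubiquitinase, measured 19.2 and 39.6 CPM in WT and 12.3 and 12.96 CPM in KO liver and was called lower by DESeq2 (adjusted p = 0.085). Wee1, a clock-controlled kinase that holds cells before mitosis, measured 18.3 and 18.3 CPM in WT and 10.6 and 11.4 CPM in KO liver (edgeR adjusted p = 0.871). Nfil3, a repressor in the clock's output, was higher, at 7.75 and 6.19 CPM in WT and 16.2 and 18.1 CPM in KO liver (DESeq2 adjusted p = 0.00849, edgeR adjusted p = 0.344).

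Of the 64 interferon-stimulated genes tested, 49 had a log2 fold change above 0, where 50.6% of all genes did. Only 1 of the 64 was called, by DESeq2 alone, which called 0.222% of all genes higher. Isg15 (chr4:156199455-156200796, minus strand), a ubiquitin-like protein conjugated to others during antiviral responses, measured 18.2 and 17.9 CPM in WT and 39.1 and 39.0 CPM in KO liver (log2 fold change 1.11, SE 0.18, DESeq2 adjusted p = 0.00399, edgeR adjusted p = 0.223). The replicates of each genotype were nearly equal. Of 64 interferon-stimulated genes tested, 25 (39.1%, against 17.2% of all genes) lay above WT in both KO livers and none below, with a median of 0.20. This median became 0.091 without KO replicate 1 and 0.30 without KO replicate 2. Zbp1, a sensor of left-handed nucleic acids, measured 15.7 and 15.2 CPM in WT and 30.9 and 24.1 CPM in KO liver, and Bst2, which tethers budding viruses, measured 117 and 112 against 178 and 179 CPM. edgeR called neither (adjusted p = 0.775 and 0.947).

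Interferon gamma genes were mixed. Of 25 GTPases and chemokines, 8 (32.0%, against 17.2% of all genes) lay above WT and 2 below (against 16.1%), with a median of 0.17 that became -0.029 without KO replicate 1. Igtp, an immunity-related GTPase, had the smallest edgeR p among them, at 55.6 and 39.7 CPM in WT and 75.8 and 96.0 CPM in KO liver (edgeR adjusted p = 0.871). The 27 genes of MHC class I antigen presentation had a median of 0.10, and B2m, the light chain of MHC class I, overlapped at 2210, 2430, 2447 and 1865 CPM. None of these genes was called by either tool.

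Of the cell cycle genes tested (29 E2F and G1/S, 46 DNA replication and 74 mitosis genes), DESeq2 called 1 higher, against 0.222% of all genes. The gene was E2f8, a repressor of the E2F family that promotes polyploidy in hepatocytes. It measured 3.40 and 2.80 CPM in WT and 9.43 and 6.83 CPM in KO liver (log2 fold change 1.39, SE 0.30, DESeq2 adjusted p = 0.0787, edgeR adjusted p = 0.687). Of the 29 E2F and G1/S regulators tested, 20 had a log2 fold change below 0, and the median was -0.088. Cdkn2c, an inhibitor of the G1 kinases, was at 9.87 and 13.9 CPM in WT and 7.44 and 7.54 CPM in KO liver. DNA replication genes (46) had a median of 0.14, which became -0.024 without KO replicate 1. Of these, 8 (17.4%, against 17.2% of all genes) lay above WT and 4 (8.7%, against 16.1%) below. Mitosis genes (74) had a median of 0.12 with 11 above (14.9%, against 17.2%) and 2 below (2.7%, against 16.1%). The median of the mitosis list ranged from -0.17 to 0.42 when single libraries were left out. Kif4, a chromosome-bound kinesin, had the highest log2 fold change of that list (1.80, SE 0.65) at levels of 0.409 and 0.210 CPM in WT and 1.42 and 0.801 CPM in KO liver.

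Lower genes were called by DESeq2 and not by edgeR. Lpl, the lipoprotein lipase that releases fatty acids from circulating triglycerides, had the smallest edgeR p of all lower genes. It measured 47.1 and 48.8 CPM in WT and 24.3 and 19.96 CPM in KO liver (log2 fold change -1.12, SE 0.19, DESeq2 adjusted p = 0.00357, edgeR adjusted p = 0.306). Col4a3 and Col4a4, chains of basement membrane collagen that share a start region on chromosome 1, measured 6.90 and 4.58 against 1.09 and 1.53 CPM, and 1.25 and 1.54 against 0.129 and 0.236 CPM, respectively. Of these chains, DESeq2 called Col4a3 (adjusted p = 0.00188) but not Col4a4 (adjusted p = 0.133). Gm47283, which is annotated in the Y chromosome region shared with the X chromosome, measured 13.6 and 16.8 CPM in WT and 7.21 and 4.46 CPM in KO liver (DESeq2 adjusted p = 0.0169). The mice were females and the Y-linked genes examined had no counts, so the annotated position does not place its reads on the Y chromosome. Cpeb3, which binds cytoplasmic polyadenylation elements in mRNA, measured 14.2 and 12.8 CPM in WT and 5.73 and 6.67 CPM in KO liver (DESeq2 adjusted p = 0.0786). The receptor gene Tgfbr2 was lower by a similar margin in every library, at 19.999 and 20.063 CPM in WT and 11.3 and 11.2 CPM in KO liver (log2 fold change -0.83, SE 0.19), but was called by neither tool (edgeR adjusted p = 0.775, DESeq2 adjusted p = 0.279). Dsg1c, a desmosomal cadherin, measured 5.83 and 14.2 CPM in WT and 1.77 and 3.61 CPM in KO liver (DESeq2 adjusted p = 0.025), and the uncharacterized 1810053B23Rik measured 4.86 and 5.45 against 1.80 and 0.825 CPM (DESeq2 adjusted p = 0.0185). DESeq2 also called Adam11, B430219N15Rik and Slc22a29 lower.

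The heart genes Actc1, Myl2, Mb and Myh6, which encode sarcomere proteins and myoglobin, were also among the genes DESeq2 called lower. Their counts came largely from WT replicate 1. Myl2 had 277 counts in WT replicate 1, 33 in WT replicate 2, and 13 and 11 in the KO livers. Mb had 209, 19, 5 and 8 counts, and Actc1 108, 14, 2 and 5. Of 13 heart muscle markers, in a list written after these values were seen, 8 passed the filter, to which their counts in WT replicate 1 contributed, so that their direction is not a separate result. The list summed to 25.9, 5.07, 1.67 and 1.62 CPM. Myl2 was the most abundant of them, and Nppa was at 0 counts in every library. In edgeR without WT replicate 1, Myl2, Mb and Actc1 had log2 fold changes of -1.78, -1.90 and -2.35 with adjusted p-values of 0.408, 0.534 and 0.524. Lpl, Cyp1a2 and Gm47283 were then called, with log2 fold changes of -1.15, -1.13 and -1.54 and adjusted p-values of 0.0121, 0.00887 and 0.0244. In that comparison the lone WT library was assumed to vary like the KO pair. The part of the heart transcripts of WT replicate 1 in the lower calls outside these markers was not tested.

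**Figure D4:**
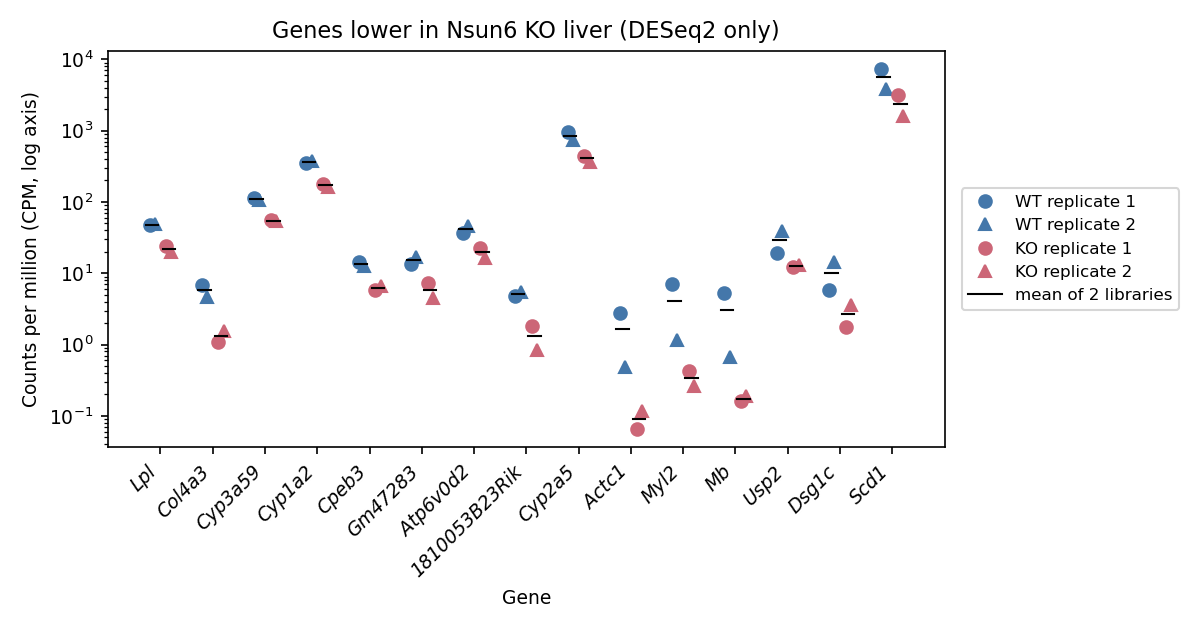
CPM on a log axis in each liver library of 15 of the 20 genes that DESeq2 called lower in KO liver, with WT in blue, KO in red, circles for replicate 1, triangles for replicate 2 and a line at the mean of each genotype. The 2 WT points are close together for Lpl, Cyp3a59 and Cyp1a2, whereas WT replicate 1 lies far above WT replicate 2 for Actc1, Myl2 and Mb.

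Apart from the heart muscle list, markers of other cell types showed no call by either tool beyond Lpl, an adipocyte marker, and Cela1, listed as a pancreas marker, both called by DESeq2 alone. Only 2 of the 14 pancreas markers were tested, and the other, Cela2a, had a log2 fold change of -0.94. Cela1 was also not particular to the pancreas in this series. With liver and kidney normalized together, it measured 156 and 229 CPM in WT kidney and 158 and 154 CPM in KO kidney. Its liver values on that scale were 23.9 and 26.3 CPM in WT and 44.4 and 59.7 CPM in KO. In bulk tissue, fewer cells of a type and less RNA per cell cannot be told apart. Of 15 endothelial markers, 6 lay below WT in both KO livers, where 16.1% of all genes did, and none above, with a median of -0.13. They summed to 409 and 388 CPM in WT and 391 and 342 CPM in KO liver, and the most abundant, Clec4g, had a log2 fold change of 0.06. T and NK cell markers had a median of -0.55, which became 0.00094 when WT replicate 1 was left out and -0.94 when KO replicate 2 was, and summed to 20.4, 15.1, 10.7 and 14.4 CPM. Trac, the constant chain of the T cell receptor, had 53, 41, 10 and 26 counts. Neutrophil markers were at the edge of detection, with 4 of 13 tested, all 4 with a log2 fold change below 0, sums of 9.02, 7.55, 3.64 and 5.49 CPM, and Ly6g at 0 counts in every library. The Kupffer cell and macrophage list, whose most abundant gene was Lyz2, had a median of 0.11 and 4 of 16 genes above WT (where 17.2% of all genes were), the complement genes C1qa, C1qb and C1qc and the folate receptor Folr2, while Timd4 lay below WT and the Kupffer cell genes Clec4f and Vsig4 overlapped. Stellate and fibroblast markers had 3 of 16 below WT (18.8%, against 16.1% of all genes), the collagen genes Col1a1, Col1a2 and Col3a1, and a median of -0.090. Of 10 adipocyte markers 3 were tested, all with a log2 fold change below 0 and a median of -0.33, and Lpl, the most abundant, and Fabp4, a fatty acid carrier, lay below WT in both KO livers. The list summed to 66.3 and 76.5 CPM in WT and 46.2 and 37.9 CPM in KO liver. Plin1, Lep and Ucp1 were at 0 counts in all libraries, and Adipoq had 2 counts in KO replicate 2 and 0 in the others. The part of cell composition in the results on Lpl and on the other genes was not tested.

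The KO effect in liver was compared with that in the spleen in a model with an interaction of tissue and genotype. Of 12338 genes expressed in both, 1 (0.00811%) differed at an adjusted p under 0.1 in edgeR, whereas DESeq2 gave 66. The edgeR gene was Hspb1, which was higher in KO liver, as given above, and lower in KO spleen, at 24.1 and 33.5 CPM in WT and 18.3 and 14.5 CPM in KO spleen on the scale of the joint normalization (log2 difference 3.48, SE 0.42, adjusted p = 0.0913). Csad came next at 1.84 (SE 0.25, adjusted p = 0.11), with spleen values of 17.4, 19.1, 16.7 and 14.7 CPM. In contrast, Isg15 and E2f8 differed between liver and spleen by -0.11 (SE 0.22) and 0.037 (SE 0.42). Spleen WT replicate 2 held more transcripts of hepatocyte genes than the other spleen libraries. With all 20 libraries normalized together, Serpina3k measured 0.308 and 247 CPM in WT and 9.43 and 13.5 CPM in KO spleen, and Fabp1 1.33 and 110 against 5.55 and 5.99 CPM. The part of these transcripts in the comparison was not tested. At an unadjusted p under 0.05, 493 genes differed. Against the kidney, 0 of 12296 genes (0%) differed at an adjusted p under 0.1 and 123 at an unadjusted p under 0.05, and the log2 difference of Hspb1 was 2.44 (SE 0.50, adjusted p = 0.9999).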

How the data were processed

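Poly(A) RNA of liver was sequenced in 2 WT and 2 KO libraries. Reads were trimmed by cutadapt, mapped by HISAT2 2.1.0 to mm10 and counted by featureCounts 2.0.1 on exons of the Ensembl GRCm38 annotation, and the authors deposited raw counts per gene without normalization. The deposited exon length per gene is an other, unmeasured value and was used for TPM. The methods state reverse-stranded counting of paired reads, whereas the command in the file header holds no such option, so reads of antisense partners may not be separated and counts are not independent molecules. Mitochondrial genes were at 0 counts in all 4 liver libraries. Total counts ranged from 31182605 to 44508197. The parts of depth and of the spread between 2 replicates per group in the precision were not tested.

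Each label gave the tissue and genotype of its library. Low counts were removed by filterByExpr and libraries scaled by TMM before the robust quasi-likelihood test of edgeR 4.0.16 (R 4.3.3), with Benjamini-Hochberg adjustment over all genes tested. Standard errors were derived from the fold change and the F statistic (|log2 fold change| over root F). CPM values are TMM-normalized. The count models were tested on simulated data. DESeq2 1.42.0, RLE factors, other filters and thresholds, a replicate block, a joint fit of all 20 libraries and leaving out each library were alternatives. The interaction was tested for genes with at least 1 CPM in both tissues.

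The members and gene lists were chosen with earlier results of these data known, so lists are described by counts and medians without a test. Named were all genes called by edgeR, up to 12 DESeq2 calls per direction, 12 lower genes with the smallest p and groups apart, up to 3 members per list with groups apart and its most abundant member, Nsun6, Isg15, E2f8, Gm47283 and cell type markers. Hspa1b, Nsun2, Cyp3a41b, Cela1, Myh6, Nppa, C1qa, C1qb, C1qc, Folr2, Fabp4, Cyp2b10, Cyp2b13, Timd4, Clec4f, Vsig4, Col1a2, Adam11, B430219N15Rik and Slc22a29 were named after their values were seen, as were the heart muscle, kidney tubule and Xist with Y-linked lists. Of the kidney tubule list, 1 of 9 genes passed the filter. Some genes are not reported here.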

Additional observations from a re-analysis of the deposited data

Results flagged for a closer look

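Hspb1 differed between liver and spleen in its KO effect by a log2 difference of 3.48 (edgeR interaction, SE 0.42, adjusted p = 0.0913), being higher in both KO livers and lower in both KO spleens. It was the 1 gene that passed this test in edgeR, whereas DESeq2 gave 66 genes. Without WT or KO replicate 2 of the liver, no gene passed it.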

How the results depend on the processing

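Against 8 genes higher and 0 lower in edgeR, DESeq2 called 33 and 20, edgeR without the filter on low counts 68 and 54, and 1 edgeR fit of all 20 libraries 0 and 0. RLE factors, a floor of 10 counts per library, the 0.05 level of adjusted p and no threshold on the fold change gave 8, 11, 7 and 8 higher genes and 0 lower ones. Leaving out single libraries gave 2 to 152 higher and 0 to 73 lower genes, with the lone library of a genotype assumed to vary like the other pair. For the interaction with the spleen, the 1 gene of edgeR became 66 in DESeq2, 0 with the kidney in place of the spleen, and 0 to 1 when single liver libraries were left out. No named gene whose groups were apart reversed its direction under these alternatives. Leaving out a library could not reverse these genes, since both KO values lay on the same side of both WT values. With the replicate number as a block, edgeR called 16 genes higher, among them all 8, and 4 lower (Dsg1c, Gsta2, Hamp2 and Sult2a5). With 2 pairs, nothing in the labels says that the numbers pair the samples, and the replicate differences of WT and KO correlated at 0.038 across genes. With 2 replicates per group, a gene without a call is not shown to be unaffected. The causes of these differences were not tested.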
